A study of Mus musculus with 14 samples.

Results

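T cell costimulatory and checkpoint genes were followed in myeloid cells sorted from mouse lungs after bleomycin injury. The set holds 8 named genes, Cd80, Cd86, Icosl, Cd40, Cd83, Cd274, Pdcd1lg2 and Havcr2, out of 43432 genes in the deposited table. The genes were listed by name for their function and not by their values, and each symbol matched 1 gene. All 8 passed the filter on low values, a level of 10 normalized counts or more in 2 or more libraries, so that 8 of the 17390 genes tested belong to the set.

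A T cell that meets its antigen on MHC class II also reads costimulatory and inhibitory proteins on the same cell. CD80 and CD86 engage the activating receptor CD28 and the inhibitory receptor CTLA-4, ICOS ligand engages ICOS, and the PD-1 ligands PD-L1 (encoded by Cd274) and PD-L2 (encoded by Pdcd1lg2) restrain T cells through PD-1. CD40 is a receptor of the presenting cell through which helper T cells raise its costimulatory capacity. CD83 marks mature presenting cells and stabilizes surface MHC class II and CD86. TIM-3, encoded by Havcr2, is an inhibitory receptor found on exhausted T cells and on myeloid cells. CD40 and TIM-3 are thus receptors, and the name of the set as ligands applies to the others. Alveolar macrophages of the healthy lung are known as weak stimulators of T cells.

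RNA-seq was made from 14 libraries of lung cells positive for SiglecF and CD11c, the surface pair that marks alveolar macrophages, sorted by high or low surface MHCII. All animals were male, of the inbred strain 129S1 and 10 to 12 weeks old, with no genetic change named. Bleomycin, a DNA-damaging drug that injures the lung and leads to fibrosis, was given into the trachea at a labelled dose of 3 U/k, and control animals received water. The groups were MHCII-low cells of controls (2 libraries, numbered 1 and 3), MHCII-low cells at 2 and at 4 weeks after bleomycin (3 libraries each) and MHCII-high cells at 2 and at 4 weeks (3 libraries each). MHCII-high cells of controls were not analysed here, so every comparison with the control concerns MHCII-low cells. The labels do not say whether replicates came from separate animals, and p-values then measure only the spread between these libraries, which may be technical.

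Depth ranged from 15106415 to 88059630 recovered reads per library, and 1 read was worth 0.39 to 2.24 normalized counts. The sort was visible in the RNA: the summed level of 5 MHC class II genes was 1301.9 to 12501.1 normalized counts in MHCII-low libraries and 91730.4 to 221616 in MHCII-high libraries. Itgax, which encodes CD11c, was at 25185 to 44133.2 over all libraries. Siglecf was at 6460.9 to 9550.6 in MHCII-low and 3056.4 to 4358.1 in MHCII-high libraries, and was called lower in MHCII-high cells at 2 weeks (-0.95 ± 0.15, adjusted p = 0.000864, limma) and at 4 weeks (-1.02 ± 0.15, adjusted p = 0.000389). The share of reads on the mitochondrial ribosomal RNAs was 3.42% to 18.3% in 2-week MHCII-low and 22.5% to 26.2% in 2-week MHCII-high libraries, without overlap. At 4 weeks it was 3.12% to 23.1% in MHCII-low and 8.12% to 29.0% in MHCII-high libraries. In MHCII-low replicate 1 at 4 weeks the immunoglobulin heavy chain gene Ighm stood at 2126.7, against 36.2 to 170 in the other MHCII-low libraries, and values without that library are given where a call depends on it.

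The 2 genes of the PD-1 ligands lie next to each other on chromosome 19 and Havcr2 on chromosome 11, and their promoter sequences are shown because Cd274 and Havcr2 were by far the most abundant genes of the set while Pdcd1lg2, the neighbour of Cd274, was low. The windows run from 250 bases before to 50 bases after the start of the RefSeq gene in the build GRCm38.p6, on the forward strand, 5′ to 3′. They are chr19:29367188-29367487 for Cd274, chr19:29410669-29410968 for Pdcd1lg2 and chr11:46454681-46454980 for Havcr2. Capitals mark the single motif match found in each.
Cd274: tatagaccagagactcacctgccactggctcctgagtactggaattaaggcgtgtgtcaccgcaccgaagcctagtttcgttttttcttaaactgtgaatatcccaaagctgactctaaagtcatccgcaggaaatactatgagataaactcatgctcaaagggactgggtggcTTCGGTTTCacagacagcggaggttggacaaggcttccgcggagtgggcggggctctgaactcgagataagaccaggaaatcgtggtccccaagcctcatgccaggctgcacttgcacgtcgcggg
Pdcd1lg2: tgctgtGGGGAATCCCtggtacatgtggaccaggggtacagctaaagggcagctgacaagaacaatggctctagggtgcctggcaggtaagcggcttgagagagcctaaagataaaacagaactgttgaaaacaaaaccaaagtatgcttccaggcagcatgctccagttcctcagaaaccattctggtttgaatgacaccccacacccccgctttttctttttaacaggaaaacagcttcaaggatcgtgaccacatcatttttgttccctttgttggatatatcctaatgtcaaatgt
Havcr2: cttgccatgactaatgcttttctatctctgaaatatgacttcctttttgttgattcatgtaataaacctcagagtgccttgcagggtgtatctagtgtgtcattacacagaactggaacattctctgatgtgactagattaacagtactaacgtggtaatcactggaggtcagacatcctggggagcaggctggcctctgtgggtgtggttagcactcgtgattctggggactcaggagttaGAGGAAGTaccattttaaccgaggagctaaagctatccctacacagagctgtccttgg
The capitals in Cd274 match the interferon response element core GAAANNGAA on the reverse strand, those in Pdcd1lg2 the NF-kB motif, and those in Havcr2 the PU.1 motif GAGGAAGT. PU.1 is a master regulator of myeloid cells. A search of both strands for these motifs and for the gamma-activated site TTCNNNGAA covered the 5 members with an entry (not Cd86, Cd40 and Cd83), and the windows of Cd80 and Icosl held none of the 4. Among 32851 promoter windows of the same length, 8.56% held the interferon core, 4.505% the NF-kB motif, 3.202% the PU.1 motif and 8.298% the gamma-activated site. The interferon core and the gamma-activated site can overlap in sequence. A match is a description of the letters only.

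Cd86 and Cd40 were higher in MHCII-high than in MHCII-low cells at both times after bleomycin, Icosl was higher at 2 weeks, and Cd80, Cd83, Cd274, Pdcd1lg2 and Havcr2 did not pass the test at either time. By limma with Benjamini-Hochberg adjustment over all genes tested, 3 of 8 members were called higher and 0 lower at 2 weeks, where 2.87% of all genes tested were called in either direction. At 4 weeks 2 of 8 were called higher and 0 lower, beside 2.5% of all genes. For the mean of both times 2 of 8 were called higher and 0 lower, beside 7.21%. The median log2 fold change of the members was 0.44 at 2 weeks, 0.17 at 4 weeks and 0.37 for the mean, and that of all genes tested was 0.08, -0.03 and 0.02. Adjusted p-values are those of limma where no other tool is given. Differences are log2 fold changes with their standard error, computed on log2(value + 1), which understates the change of scarce genes, and means are given with their SD. In sorted bulk samples a larger number of cells of a type and more RNA per cell cannot be told apart.

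**Figure D1:**
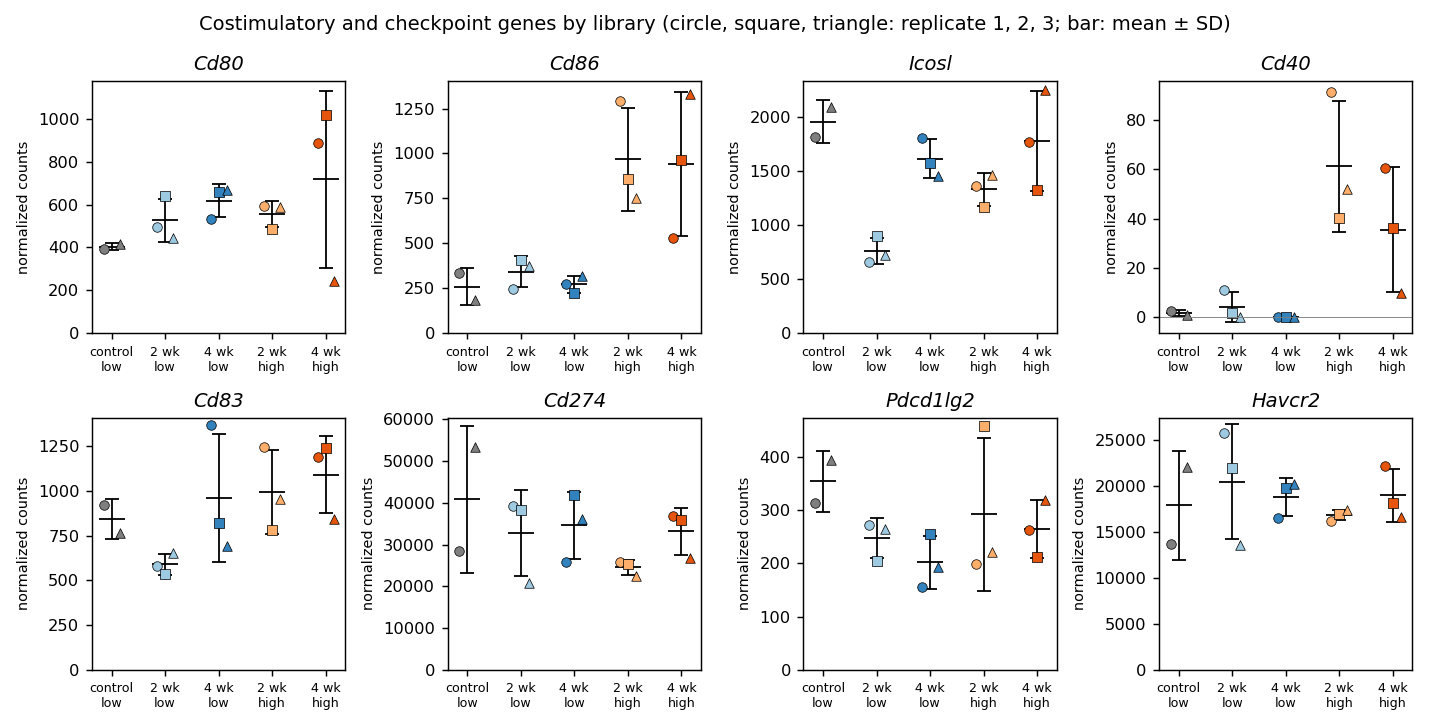
Normalized counts (vertical axis, from 0) of each of the 8 genes in each library, by group (horizontal axis), with black bars for the mean ± SD of 2 control or 3 other libraries. Cd86 and Cd40 are higher in both MHCII-high groups than in the MHCII-low group of the same time, and Icosl is lowest in 2-week MHCII-low cells. For Cd274, Pdcd1lg2 and Havcr2 the groups that are neighbours in the order of the means overlap. Not every pair of groups overlaps for Cd274 and Pdcd1lg2.

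Cd86, a ligand of CD28 and CTLA-4, lies on chromosome 16 (36603869 to 36666081, reverse strand, build GRCm38 as for all gene positions here). Its normalized counts were 1292, 859.3 and 752.4 in 2-week MHCII-high libraries and 246.1, 409.2 and 372.8 in 2-week MHCII-low libraries. At 4 weeks they were 530.7, 961.8 and 1334 in MHCII-high and 271.8, 225.5 and 318.8 in MHCII-low libraries, and the controls had 331.9 and 186. Every MHCII-high library thus lay above every MHCII-low library, the controls included. The difference was 1.49 ± 0.35 at 2 weeks (adjusted p = 0.0195, 2.81-fold) and 1.70 ± 0.35 at 4 weeks (adjusted p = 0.00729, 3.26-fold). For the mean of both times it was 1.60 ± 0.25 (adjusted p = 0.00019), and 22 of 22 alternative settings kept that call and the 4-week call, with an adjusted p of at most 0.0452 at 4 weeks. The 2-week call was kept in 17 of 22. It was lost without MHCII-low replicate 1 of that time (1.27, adjusted p = 0.133), without MHCII-high replicate 1 (1.26, adjusted p = 0.133) or 2 (1.56, adjusted p = 0.0685), without the filter (adjusted p = 0.0542), and with the mitochondrial ribosomal RNA share as a covariate (1.26, adjusted p = 0.193).

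Within one MHCII level Cd86 did not pass the test with time or treatment. The MHCII-low cells had 343 ± 85.6 at 2 weeks and 272 ± 46.7 at 4 weeks (n = 3 each) beside 259 ± 103 in controls (n = 2), differences from the control of 0.43 ± 0.39 (adjusted p = 0.724) and 0.12 ± 0.39 (adjusted p = 0.997). The MHCII-high cells had 968 ± 286 at 2 weeks and 942 ± 402 at 4 weeks (n = 3 each), a difference of -0.10 ± 0.35 (adjusted p = 0.935).

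Cd80, the other ligand of CD28 and CTLA-4, lies on the same chromosome (38458933 to 38486933, forward strand), 1792851 bases from Cd86. Its values were 392.3 and 415 in controls, 494.5, 638.5 and 444.3 in MHCII-low libraries of 2 weeks and 530.8, 659.8 and 666.4 in those of 4 weeks. In MHCII-high libraries they were 591.2, 485 and 590.8 at 2 weeks and 888.7, 1019.8 and 244.6 at 4 weeks. The lowest value of all 14 libraries and the highest thus both came from 4-week MHCII-high cells, in replicates 3 and 2. MHCII-high and MHCII-low cells differed by 0.09 ± 0.38 at 2 weeks (adjusted p = 0.949) and -0.02 ± 0.38 at 4 weeks (adjusted p = 0.992), and without MHCII-high replicate 3 of 4 weeks the latter was 0.63 (adjusted p = 0.249). Per kilobase of exon, Cd86 was at 0.21 ± 0.042 of Cd80 in 4-week MHCII-low cells and 0.31 ± 0.080 in 2-week MHCII-low cells (n = 3 each). In 2-week MHCII-high cells the ratio was 0.81 ± 0.21, and at 4 weeks it spread from 0.28 to 2.53.

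Icosl, which encodes the ligand of the T cell receptor ICOS, was the only one of the 8 genes called against the control. It lies on chromosome 10 (78069360 to 78079525, forward strand). The controls had 1814.5 and 2095.4 normalized counts. The 2-week MHCII-low libraries had 657.8, 894.9 and 722.4, below every library of every other group. At 4 weeks MHCII-low cells were at 1807.7, 1574.5 and 1456.4, a range that touched neither the 2-week nor the control libraries. Against the control Icosl fell by 1.37 ± 0.24 at 2 weeks (adjusted p = 0.00189). From 2 to 4 weeks it rose by 1.09 ± 0.21 in MHCII-low cells (adjusted p = 0.00889). At 4 weeks its difference from the control was -0.28 ± 0.24 (adjusted p = 0.935).

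Both Icosl calls in MHCII-low cells rest on few libraries. The fall at 2 weeks was kept in 21 of 22 alternative settings and lost without control replicate 3 (-1.27, adjusted p = 0.0724). The rise to 4 weeks was kept in 20 of 22 and lost without MHCII-low replicate 1 of 2 weeks (1.00, adjusted p = 0.0609) or of 4 weeks (1.01, adjusted p = 0.0584).

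In MHCII-high cells Icosl was at 1364, 1162.4 and 1465.7 at 2 weeks and 1767, 1325.8 and 2251.7 at 4 weeks, overlapping groups with a difference of 0.39 ± 0.21 (adjusted p = 0.419). MHCII-high cells were above MHCII-low cells at 2 weeks by 0.82 ± 0.21 (adjusted p = 0.0384) with no overlap, and by 0.12 ± 0.21 at 4 weeks (adjusted p = 0.858). The 2-week call is fragile: it was kept in 8 of 22 alternative settings, with an adjusted p of up to 0.194. It was lost without either control, without 2-week MHCII-low replicate 1 or 3, without 4-week MHCII-low replicate 2 or 3 and without any one of the 2-week MHCII-high replicates, and also without the filter (adjusted p = 0.0715), under TMM scaling (adjusted p = 0.0623), with edgeR (adjusted p = 0.0746), with the mitochondrial covariate (adjusted p = 0.162) and in 1 further setting given with the limits of the processing. The test of whether the MHCII difference itself changed with time gave -0.70 ± 0.30 for Icosl (adjusted p = 0.797).

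**Figure D2:**
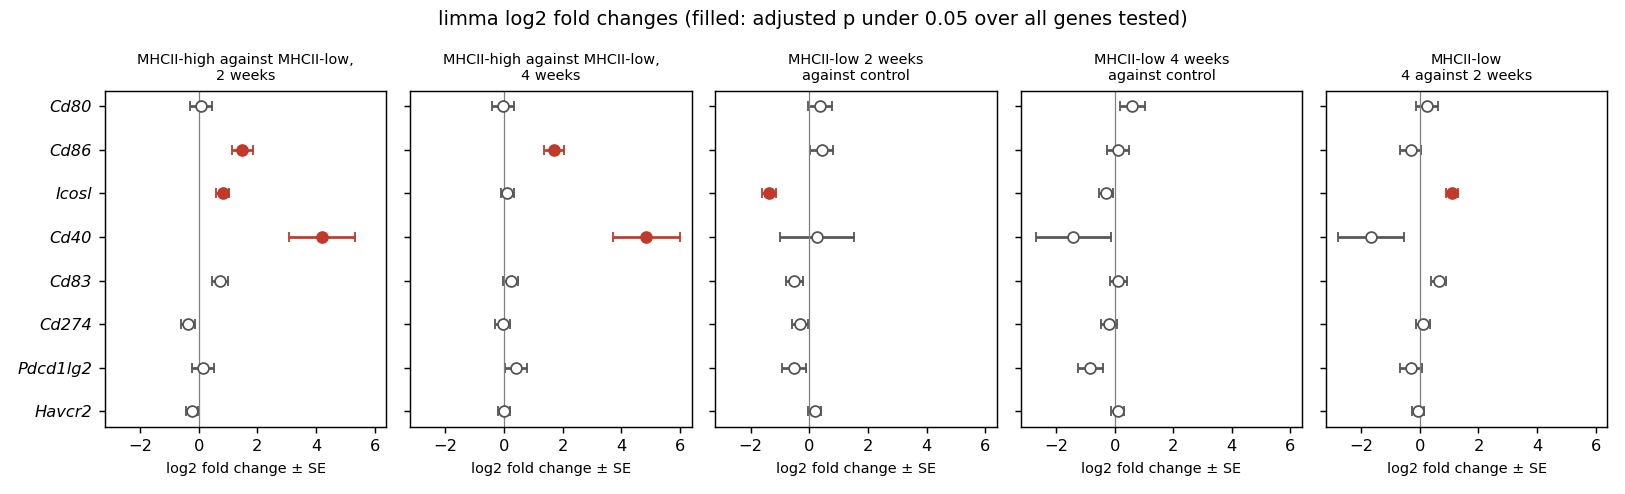
limma log2 fold changes (horizontal axis, log2 scale, bars are standard errors) of the 8 genes in 5 comparisons, with filled red points for an adjusted p under 0.05 over all genes tested. The filled points are Cd86 and Cd40 at both times, Icosl at 2 weeks, and Icosl in MHCII-low cells at 2 weeks against control (-1.37) and from 2 to 4 weeks (1.09).

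Cd40, the receptor for CD40 ligand of helper T cells, was the least abundant of the 8 genes and was read mostly in MHCII-high libraries. It lies on chromosome 2 (165055627 to 165072948, forward strand). Its values were 91.1, 40.1 and 52.1 in 2-week MHCII-high libraries and 60.4, 36.1 and 9.7 in 4-week MHCII-high libraries. The MHCII-low libraries had 11.2, 1.6 and 0 at 2 weeks and 0 in all 3 at 4 weeks, and the controls had 2.7 and 0.9. The groups of the same time did not overlap, but the lowest 4-week MHCII-high library lay below the highest 2-week MHCII-low library. Behind these values stand 286 reads in the 3 MHCII-high libraries of 2 weeks and 60 in those of 4 weeks, against 6, 0 and 8 reads in 2-week MHCII-low, 4-week MHCII-low and control libraries.

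The limma difference in Cd40 was 4.21 ± 1.13 at 2 weeks (adjusted p = 0.0472), 4.86 ± 1.13 at 4 weeks (adjusted p = 0.0214) and 4.53 ± 0.80 for the mean of both times (adjusted p = 0.000841). The last call was kept in 22 of 22 alternative settings. A fitted fold change against a group at 0 depends on the settings, the pseudocount among them. Over all alternatives, edgeR and DESeq2 included, the 4-week value ran from 2.77 to 8.28. With 1 library left out it ran from 4.32 to 5.58. Taking 3 reads over the whole 4-week MHCII-low group as the floor for a count of 0, the 4-week MHCII-high mean (35.4) was 36.9 times that floor. The floor covers counting error of the MHCII-low group only. Counting error of the MHCII-high reads and the spread between libraries are not covered, so the ratio is not a strict lower bound. Leaving out 1 library of that time gave ratios from 23.1 (without MHCII-low replicate 1) to 50.2 (without MHCII-high replicate 3), with 23.8 without MHCII-high replicate 1. The single-time calls were fragile. The 2-week call was kept in 8 of 22 settings (adjusted p up to 0.186) and lost without either control, without 2-week MHCII-low replicate 2 or 3, and without any one of the 4-week MHCII-low or 2-week MHCII-high replicates. It was also lost without the filter (adjusted p = 0.106), with edgeR (adjusted p = 0.186), with the mitochondrial covariate (adjusted p = 0.0935) and in 1 further setting given with the limits of the processing. The 4-week call was kept in 16 of 22 (adjusted p up to 0.0728) and lost without the filter, without any one of the 4-week MHCII-low replicates and without MHCII-high replicate 1 or 2 of that time.

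Markers of other presenting cells and the lower Siglecf of MHCII-high cells moved with Cd40 and Cd86, and their part in both results was not tested. Of 10 dendritic cell markers, 5 were called higher in MHCII-high cells at 2 weeks, 6 at 4 weeks and 7 for the mean of both times, with a median log2 difference of 3.43. Their summed level was 253 to 610.8 normalized counts in all MHCII-low libraries, controls included, and 3362.9 to 6966.8 in MHCII-high libraries. The largest part of the sum in each MHCII-high library was the chemokine gene Ccl22, at 1673.5 to 4454.3 there and 15.4 to 385.4 in MHCII-low libraries. Flt3, a receptor that defines the dendritic lineage, was at 0 to 17.9 in MHCII-low and 91.7 to 280.8 in MHCII-high libraries. Ccr7, the homing receptor of migrating dendritic cells, was at 0 to 31.3 and 178.6 to 410.1. Zbtb46, Xcr1, Clec9a, Cd209a and Batf3 of the same list overlapped between MHCII levels. Batf3 was at 6.4 to 29.2 in MHCII-low and 4.7 to 33.6 in MHCII-high libraries, and Xcr1 at 5.2 to 74.5 and 5.7 to 137.4. The same MHCII-high replicate 1 of 2 weeks that had the highest Cd40 also had the highest dendritic cell marker sum. Other libraries did not follow that order. MHCII-high replicate 3 of 4 weeks had the highest Cd86 (1334) and the lowest sum of the MHCII-high libraries (3362.9). At 4 weeks the highest sum (4664.3) was in MHCII-high replicate 2 and the highest Cd40 (60.4) in replicate 1. The ranking of the sums is weighted to Ccl22. Among MHCII-high libraries Ccl22 was also highest in 2-week replicate 1 (4454.3) and lowest in 4-week replicate 3 (1673.5). Flt3 gave another order, highest in 4-week replicate 2 (280.8) and lowest in 2-week replicate 2 (91.7). The sums therefore do not rank the libraries by dendritic cell content.

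B cell markers, whose cells also carry CD40 and CD86, were called higher for 2 of 8 at 2 weeks and 5 of 8 at 4 weeks. Without Cd22, which was high in every library and was set aside after its values were seen, their summed level was 1116.1 to 4058.9 in MHCII-high and 55.4 to 2202.1 in MHCII-low libraries. The value of 2202.1 belongs to 4-week MHCII-low replicate 1, in which Cd40 was at 0 and Cd86 at 271.8. Without that library the 4-week Cd86 difference was 1.71 (adjusted p = 0.0278) and the Cd40 difference 4.86 (adjusted p = 0.0694). The defining B cell gene Cd79a was at 6.1 in 4-week MHCII-high replicate 3, the library with the lowest Cd40 of the MHCII-high libraries (9.7) and the highest Cd86 (1334). Markers of monocyte-derived or interstitial macrophages were called higher for 8 of 10 at both times, and those of resident alveolar macrophages lower for 7 of 10 at 2 weeks and 3 of 10 at 4 weeks. Of 7 T cell markers tested, 0 were called at 2 weeks and Cd4 was called higher at 4 weeks (3.28 ± 0.75, adjusted p = 0.0186). Of 6 alveolar epithelium markers 3 were called higher at 2 weeks and 2 at 4 weeks, and of 3 eosinophil and 3 neutrophil markers tested 0 were called at either time.

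**Figure D3:**
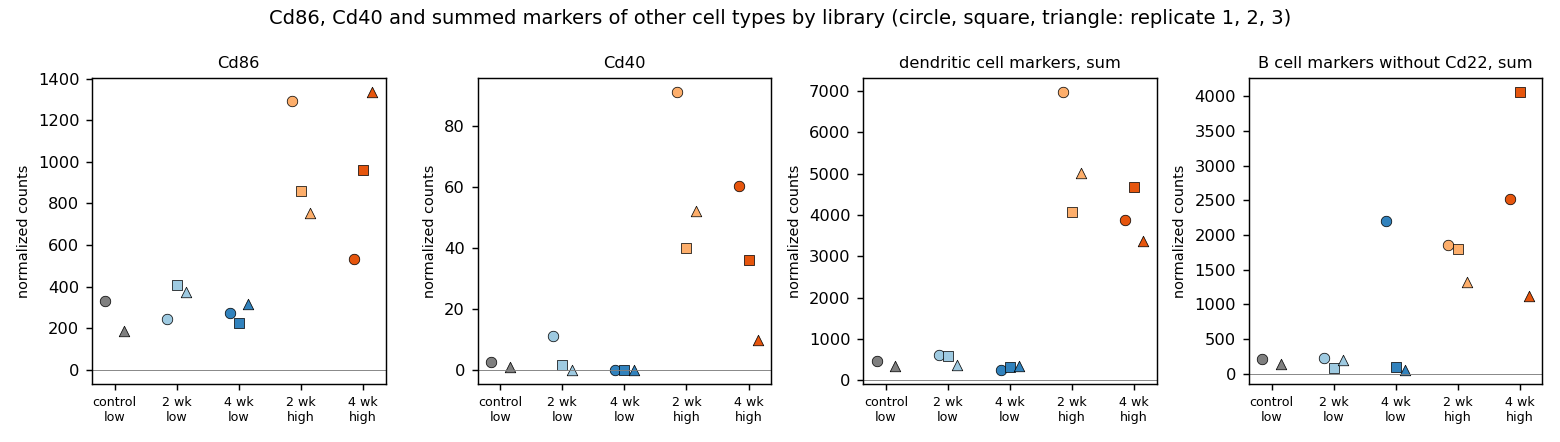
Normalized counts (vertical axis) of Cd86, Cd40, the sum of 10 dendritic cell markers and the sum of the B cell markers without Cd22 in each library, by group. Cd86 and the dendritic cell sum are higher in every MHCII-high than in every MHCII-low library. The B cell sum is too, apart from 2202.1 in 4-week MHCII-low replicate 1, where Cd40 is at 0. Cd40 is higher in MHCII-high libraries, but 4-week MHCII-high replicate 3 (9.7) lies below 2-week MHCII-low replicate 1 (11.2).

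Cd83, a marker of mature presenting cells on chromosome 13 (43785107 to 43803130, forward strand), was not called in any comparison. Its values were 921.3 and 763.6 in controls, 579.5, 536.6 and 654.1 in MHCII-low libraries of 2 weeks and 1367.8, 822.6 and 691.9 in those of 4 weeks. MHCII-high libraries had 1246.2, 779.9 and 956.5 at 2 weeks and 1192.5, 1237.9 and 842.2 at 4 weeks. The 2-week MHCII-low libraries lay below all others, and the other groups overlapped. The 2-week MHCII difference of 0.73 ± 0.26 (adjusted p = 0.16) and the 2-to-4-week difference in MHCII-low cells of 0.64 ± 0.26 (adjusted p = 0.505) did not pass the test. For the mean of both times the MHCII difference was 0.48 ± 0.19 (adjusted p = 0.133), and it passed without 4-week MHCII-low replicate 1 (0.62, adjusted p = 0.0396), the library with the high Ighm.

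The genes of the PD-1 ligands differed strongly in level and neither was called in any comparison. Cd274, on chromosome 19 (29367455 to 29388095, forward strand), ranged from 20862.1 to 53341.5 normalized counts over the 14 libraries, and its mean level per kilobase was above that of 98.9% of the genes tested. Controls had 28423.3 and 53341.5, MHCII-low libraries 39146, 38326.8 and 20862.1 at 2 weeks and 25848.6, 41820.3 and 36131.1 at 4 weeks. The controls differed from each other by more than the means of any of the groups did. MHCII-high libraries had 25862.2, 25285.7 and 22438.4 at 2 weeks and 36887.8, 35947.8 and 26667.2 at 4 weeks. The MHCII difference was -0.36 ± 0.24 at 2 weeks (adjusted p = 0.525) and -0.05 ± 0.24 at 4 weeks (adjusted p = 0.959). Against the control Cd274 differed by -0.31 ± 0.27 at 2 weeks and -0.20 ± 0.27 at 4 weeks in MHCII-low cells (adjusted p = 0.721 and 0.969).

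Pdcd1lg2, which begins 22823 bases downstream of the end of Cd274 (29410919 to 29471157, forward strand), had 314 and 395.2 normalized counts in controls. MHCII-low libraries had 273, 203.8 and 264.8 at 2 weeks and 156.1, 255.9 and 194 at 4 weeks, and MHCII-high libraries 199.1, 458.7 and 220.7 at 2 weeks and 262.2, 211.8 and 320.1 at 4 weeks. Both controls lay above all MHCII-low libraries of either time, yet the differences of -0.52 ± 0.42 at 2 weeks (adjusted p = 0.681) and -0.83 ± 0.42 at 4 weeks (adjusted p = 0.822) did not pass the test. Per kilobase of exon the mean ratio of Cd274 to Pdcd1lg2 was 43.4 to 78.0 by group, and no library had a ratio under 25.0.

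Havcr2, the gene of TIM-3 on chromosome 11 (46454935 to 46481255, forward strand), was also abundant and was not called in any comparison. Its values were 13733.9 and 22108.8 in controls, 25808.7, 21982.7 and 13613.9 in MHCII-low libraries of 2 weeks and 16485.7, 19736.6 and 20221.9 in those of 4 weeks. MHCII-high libraries had 16229.7, 16954.6 and 17369.8 at 2 weeks and 22188, 18199.8 and 16585.7 at 4 weeks. All groups overlapped, and the highest library was 1.90 times the lowest, the smallest spread of the 8 genes. The MHCII difference was -0.23 ± 0.21 at 2 weeks (adjusted p = 0.665) and 0.01 ± 0.21 at 4 weeks (adjusted p = 0.997).

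Cd274 and Havcr2 varied together from library to library, over all libraries and for the pooled deviations within groups, but not in each group. In 2-week MHCII-high replicates 1, 2 and 3 Cd274 fell (25862.2, 25285.7 and 22438.4) while Havcr2 rose (16229.7, 16954.6 and 17369.8). Pearson's r of their log2 values was 0.793 over 14 libraries and 0.915 for the deviations from the group means, the highest of the 28 pairs of members. With the trend of each library with GC content removed it was 0.739, and without the 2 libraries farthest from the median of Cd274 (2-week MHCII-low replicate 3 and control replicate 3) also 0.739 over 12. The points share library and depth, and the values are a description. Cd86 and Cd40, in contrast, had r = 0.76 over all libraries and -0.42 within groups, and Cd80 and Cd86 had -0.01.

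**Figure D4:**
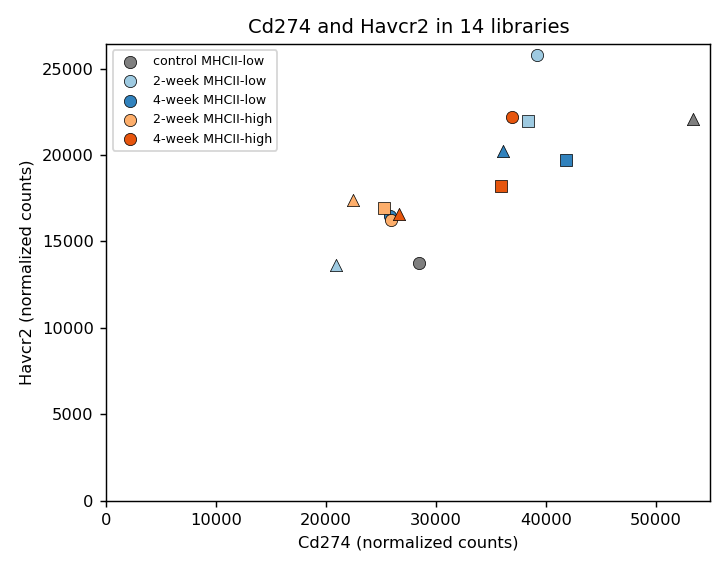
Normalized counts of Cd274 (horizontal axis) and Havcr2 (vertical axis) in the 14 libraries, with colour for the group and circle, square or triangle for replicate 1, 2 or 3. Both genes are low together in 2-week MHCII-low replicate 3 (20862.1 and 13613.9) and high together in replicate 1 of that group (39146 and 25808.7).

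The order of the members by their mean level per kilobase over all libraries was Cd274 (9012), Havcr2 (6857), Icosl (528), Cd83 (420), Cd80 (339), Pdcd1lg2 (162), Cd86 (158) and Cd40 (6.42). In every group, control included, the mean levels per kilobase of Cd274 and Havcr2 (6193 to 11287) lay above those of every other member (at most 709). Within single genes, the order of the group means had few gaps that the libraries respected. For Cd86 the gap lay between the MHCII-high and the MHCII-low groups, for Icosl between 2-week MHCII-low cells and the rest. For Cd80 and Cd83 only the group with the lowest mean stood apart from its neighbour, control for Cd80 and 2-week MHCII-low for Cd83. For Cd40 the controls lay above 4-week MHCII-low cells, which were at 0, and the other neighbours overlapped. Neighbouring groups of Cd274, Pdcd1lg2 and Havcr2 overlapped throughout.

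**Figure D5:**
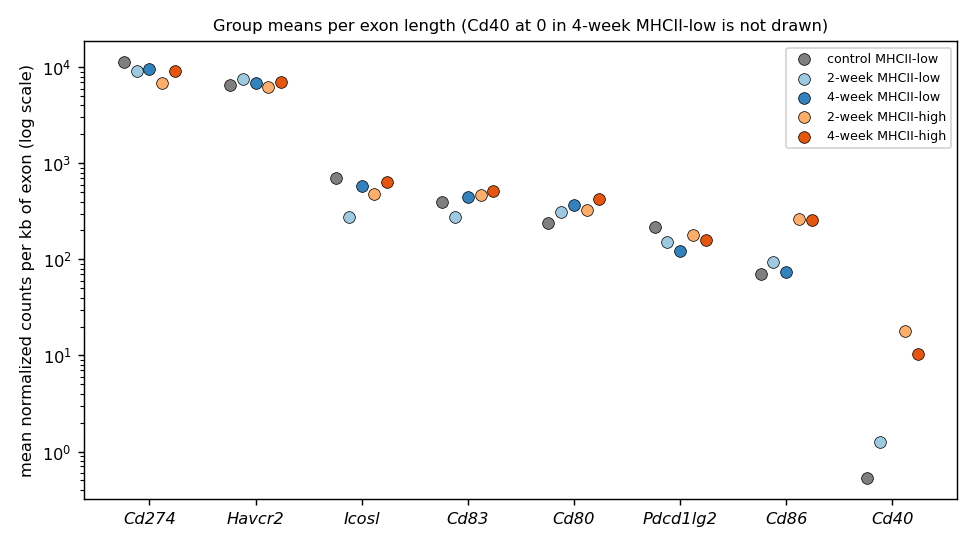
Group means of normalized counts per kilobase of exon (vertical axis, log scale) of the 8 genes, ordered by their mean over all libraries, with 1 point per group. Cd274 and Havcr2 lie above all other genes in each group, and Cd40 lies lowest, with the 4-week MHCII-low mean of 0 not drawn.

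With time and treatment few members moved. Against the control, 1 of 8 (Icosl, lower) was called in MHCII-low cells at 2 weeks, beside 1.91% of all genes tested, and 0 of 8 at 4 weeks, beside 0.046%. From 2 to 4 weeks 1 of 8 (Icosl, higher) was called in MHCII-low cells, beside 0.857%, and 0 of 8 in MHCII-high cells, beside 1.07%. In the test of whether the MHCII difference changed with time 0 of 8 members and 0% of all genes were called by limma. In that test 987 genes had an unadjusted p under 0.05, Icosl among them, and edgeR called 0 genes and DESeq2 56. For the other counts of 0, at 4 weeks against control 1065 genes had an unadjusted p under 0.05 and edgeR called 2 and DESeq2 77 genes, and from 2 to 4 weeks in MHCII-high cells 2426 genes did and edgeR called 112 and DESeq2 638. None of these calls by edgeR or DESeq2 was a member. Median log2 fold changes of the members and of all genes tested were -0.06 and -0.09 at 2 weeks against control, -0.05 and -0.06 at 4 weeks, 0.01 and 0.03 for MHCII-low cells over time and 0.13 and -0.07 for MHCII-high cells over time. The comparisons with control share the same 2 control libraries.

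Among other genes of the pathway, the TNF family ligand Tnfsf8 (CD30 ligand) was also scarce in MHCII-low cells. It was called higher in MHCII-high cells at 2 weeks (4.66 ± 1.15, adjusted p = 0.0285) and at 4 weeks (5.23 ± 1.15, adjusted p = 0.014), at 95.8 to 158.5 and 48.6 to 241 normalized counts against 0 to 20.7 in all MHCII-low libraries. It was the 1 gene called of 4 tested among 7 TNF family costimulatory ligands, whose median difference was 0.98 at 2 weeks and 1.36 at 4 weeks. Of the other B7 and butyrophilin family ligands 5 of 7 were tested, and 0 were called at either time, with a median of 1.73 at 2 weeks and 0.10 at 4 weeks. For the mean of both times Ildr2 was called higher (3.53 ± 1.04, adjusted p = 0.0427).

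In the list of other checkpoint ligands and adhesion partners 2 of 15 genes tested were called higher at 2 weeks, 3 at 4 weeks and 5 for the mean of both times, and 0 lower. Timd4, a phosphatidylserine receptor, had differences of 4.79 ± 1.19 at 2 weeks (adjusted p = 0.0286) and 6.26 ± 1.19 at 4 weeks (adjusted p = 0.0037). Fgl2, a secreted suppressor of T cells, rose by 1.07 ± 0.21 at 2 weeks (adjusted p = 0.00594) and 0.82 ± 0.21 at 4 weeks (adjusted p = 0.0422). Nectin3, an adhesion protein, was higher at 4 weeks by 1.37 ± 0.31 (adjusted p = 0.0186). The remaining calls for the mean, Ceacam1 and Pvr, were named after their values were seen (0.96 and 0.62, adjusted p = 0.031 and 0.0421). The medians of the list were 0.15 at 2 weeks, 0.23 at 4 weeks and 0.12 for the mean.

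Among 11 genes of CD40 signalling, the adaptor gene Traf1 was called at 2 weeks (4.49 ± 1.00, adjusted p = 0.0147) and at 4 weeks (4.25 ± 1.00, adjusted p = 0.0222), and for the mean of both times the NF-kB subunit gene Rel was called as well (0.48 ± 0.13, adjusted p = 0.0245). The median of the list was 0.30 at 2 weeks and 0.42 at 4 weeks. Of 9 genes of interferon signalling to PD-L1 and its surface partners, 0 were called at either time, and Jak2 was called for the mean of both times (0.44 ± 0.13, adjusted p = 0.0394). The median of that list was 0.14 at 2 weeks and 0.00 at 4 weeks.

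Receptors of T cells, those of the members and related inhibitory ones, were listed too. Pdcd1, which encodes PD-1, was at 0 to 0.8 normalized counts in every library and was not tested, and Cd40lg did not exceed 23.5. Of 8 receptor genes tested, Lag3, an inhibitory receptor that binds MHC class II, was the 1 called at 2 weeks (1.96 ± 0.43, adjusted p = 0.0142), at 301.5 to 371.8 in MHCII-high against 63.7 to 106.8 in MHCII-low libraries, and 0 were called at 4 weeks. For the mean of both times 3 of 8 were called higher and 0 lower: Btla (3.89 ± 0.89, adjusted p = 0.00825), Lag3 (1.29 ± 0.31, adjusted p = 0.0111) and Cd160 (1.58 ± 0.48, adjusted p = 0.0481), the last named after its value was seen. The median of these receptors was 1.69 at 2 weeks, 0.75 at 4 weeks and 1.43 for the mean. Cd28 ranged from 0 to 53.7 in MHCII-low and from 3.1 to 409 in MHCII-high libraries. Summed levels of T cell markers were 66.5 to 487.9 in MHCII-low and 170.5 to 758.5 in MHCII-high libraries, overlapping.

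In a list of 5 genes of the MARCH1 and IL-10 brake on CD86, 2 were called higher and 0 lower in MHCII-low cells at 2 weeks against control. The median was 0.33, and Cd86 RNA was not called. RNA does not give the surface level of CD86 or PD-L1 protein, on which MARCH1 and CMTM6 act. Marchf1, a ubiquitin ligase that removes CD86 and MHC class II from the surface, was higher in MHCII-low cells at 2 weeks than in control by 0.86 ± 0.20 (adjusted p = 0.0205), at 4389.8 to 5189.5 against 2549.1 and 2634. Socs3, an inhibitor of cytokine signalling, rose by 2.44 ± 0.35 in the same comparison (adjusted p = 0.000227) and fell by 1.94 ± 0.31 from 2 to 4 weeks in MHCII-low cells (adjusted p = 0.0014). Between MHCII levels Socs3 was called at 4 weeks (1.22 ± 0.31, adjusted p = 0.0363), the 1 call among the 5 genes of this list, with a median of 0.54. Cmtm6, which keeps PD-L1 on the surface, was the 1 call of 9 in the interferon and PD-L1 list. It was higher at 2 weeks than in control by 0.66 ± 0.16 (adjusted p = 0.0324), and Cd274 RNA was not called. Nectin3, the 1 call of 15 among the checkpoint and adhesion genes, was higher in that comparison by 2.61 ± 0.35 (adjusted p = 0.000116).

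For each member the 3 genes with the most similar profile were sought by Pearson's r of log2 values over the 14 libraries, among 11400 genes. Cd86 was most like Cadm1 (an adhesion molecule, r = 0.94), Fcer2a (the low-affinity IgE receptor, also on the B cell list, r = 0.93) and Tenm4 (0.93). Cd40 was most like Pstpip1 (0.95), Fyb (0.95) and Rasgrp3 (0.94), signalling genes of haematopoietic cells. The profile of Icosl, low in 2-week MHCII-low cells, was closest to Slc24a1 (0.92), Eml6 (0.89) and Ttn (0.87): Slc24a1 stood at 8.9 to 26.4 in 2-week MHCII-low cells and 113.6 to 122.7 in controls. Cd274 was closest to Bmt2 (0.89), Rock2 (0.89) and Zcchc6 (0.88). Havcr2 was closest to Ccndbp1 (0.88), Snap23 (0.84) and Tstd3 (0.84). Cd80 (Trak2, 0.86), Cd83 (Mthfd1l, 0.83) and Pdcd1lg2 (1700023H06Rik, 0.81) had lower best values. The third gene for Cd83 was Ighm (0.81), whose level in 4-week MHCII-low replicate 1, the library with the highest Cd83, is given above.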

How the data were processed

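RNA-seq values of 14 sorted-cell libraries came from 1 deposited table with normalized counts per gene, a depth-scaled signal deposited by the authors, per the file headers, and rounded to 1 decimal. STAR, DESeq2 and the build mm10 are named in the submitters' processing notes, without their roles. The annotation is not given in the sources used here. GC percent and exon length per gene are the authors' deposited columns. The values are whole multiples of the worth of 1 read, and dividing by it gave whole reads for 100% of the values tested within the rounding of 0.05. In control replicate 1 a read is worth only 0.39, so the rounding spans much of a step and whole multiples are weaker evidence there. Amplified copies of a molecule cannot be told apart, so reads and floors reflect counting error only.

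The main test was limma 3.58.1 (R 4.3.3) with its trend option, fitted to log2(value + 1) over 5 groups and 14 libraries together. The filter kept genes that reached 10 normalized counts in 2 or more libraries, p-values were adjusted by Benjamini-Hochberg within each comparison, and a gene was called at an adjusted p under 0.05. The pipeline was tested on simulated data. Alternatives were a pseudocount of 5, no filter, TMM scaling, edgeR 4.0.16 and DESeq2 1.42.0 on recovered reads, the mitochondrial ribosomal RNA share as a covariate, a GC correction, a replicate block and leaving out each library. The members, lists and motifs were chosen with earlier results of these data known. All 8 members are named; other pathway genes were named as up to 2 with the smallest p per list and comparison, and exceptions are stated. Gene spans are the authors'. They equal those of GENCODE M21 (GRCm38) for 4 of 8 members. The symbol of Marchf1 had been turned into a date in the table and was matched by its Ensembl identifier.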

Additional observations from a re-analysis of the deposited data

How the results depend on the processing

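Of 1408 recomputed values (64 results of the members under 22 alternatives), 1362 kept their side of the threshold, 42 lost the call, 4 gained one, and 0 called values changed sign. The count of members called between MHCII levels at 2 weeks was 3 by limma, beside 2.87% of all genes tested. It was 0 without the filter on low values (1.20% of all genes) and 0 with the mitochondrial ribosomal RNA share as a covariate (1.19%). With edgeR it was 1 (2.48%) and with TMM scaling 2 (2.94%). At 4 weeks the count of 2 (2.50% of all genes) was 1 without the filter (1.07%). For the mean of both times the count of 2 (7.21%) was 3 with DESeq2 (12.32%) and 3 with the GC correction (7.71%). Both gains came through Icosl (adjusted p = 0.0227 with DESeq2 and 0.0374 with the GC correction). The share of all genes called thus moved with the setting as well. Without the filter more genes of low level enter the adjustment; otherwise the cause was not tested. Leaving out 1 library at a time gave 0 to 3 members at 2 weeks (1.19% to 3.62% of all genes) and 1 to 2 at 4 weeks (1.54% to 2.79%). For the mean it gave 2 to 3 (4.98% to 8.12%). It gave 0 to 1 for MHCII-low cells at 2 weeks against control (0.74% to 2.36%) and 0 to 1 for MHCII-low cells over time (0.55% to 1.06%).

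The replicate numbers are shared between groups, but the labels give them no meaning. Deviations of same-numbered MHCII-high and MHCII-low libraries correlated at 0.107, 0.068 and 0.025 at 2 weeks and 0.009, 0.034 and 0.015 at 4 weeks, all positive. Those of different numbers ran from -0.124 to 0.077 at 2 weeks and from -0.032 to 0.017 at 4 weeks. Not every library correlated best with its own number. Correlations this small do not decide whether the numbers mark pairs, and the main test did not use them as pairs. With the replicate number as a block, 1 member was called at 2 weeks (Cd86), beside 2.67% of all genes. Icosl had an adjusted p of 0.0736 and Cd40 of 0.0783 in that limma fit. The block changed no other call of a member. TMM moved the median of all genes by at most 0.07 on the log2 scale in size. At the depth of these libraries 1 read was worth up to 2.24 normalized counts, and Cd40 in MHCII-low cells rested on 0 to 7 reads per library.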

Other observations

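Cd22, an inhibitory lectin known from B cells, stood at 8651.2 to 13879.3 normalized counts in every library, while the defining B cell gene Cd79a was at 2 to 21.4 in MHCII-low libraries. It was lower in MHCII-high cells for the mean of both times by -0.35 ± 0.10 (adjusted p = 0.0298, limma), opposite in sign to the other 7 genes of the B cell list. Other costimulatory ligands outside the set had high values at 2 weeks in MHCII-low cells without passing the test. Tnfsf14 (LIGHT) was at 106.7 to 169.6 at 2 weeks, 30 and 37.9 in controls and 8.6 to 46.1 at 4 weeks (1.98 ± 0.81 against control, adjusted p = 0.289). Cd276 (B7-H3) was at 25.5 to 85 at 2 weeks, 1.9 and 2.6 in controls and 0 to 18.9 at 4 weeks (4.04 ± 1.20 against control, adjusted p = 0.1). Vsir, the gene of the checkpoint protein VISTA, was at 3390.4 to 5571.2 in all libraries.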
